A study of Mus musculus with 4 samples.

Results

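Neutrophils were a small population of the leukocytes sorted from mouse hindpaws, and they were defined here by their transcripts. A barcode was taken as a neutrophil when it had at least 200 genes and at most 10% mitochondrial unique molecular identifiers (UMIs, each counting 1 captured molecule), at least 1% of its UMIs from S100a8 and S100a9, at least 2 UMIs of Retnlg, G0s2 and Csf3r together, under 5 UMIs of C1qa, C1qb and C1qc, and none of Cd3e. The rule found 338 neutrophils among 27800 kept barcodes. At 12 weeks they were 105 of 5271 barcodes in WT (the 12-week-WT library) and 78 of 6552 in DB (12-week-DB), and at 21 weeks 116 of 7270 in WT (21-week-WT) and 39 of 8707 in DB (21-week-DB). Where 4 values follow each other below, WT comes before DB and 12 weeks before 21 weeks.

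The study set leukocytes of diabetic mice beside those of healthy mice at 2 ages. DB mice were male Leprdb/db animals of the C57BLKS/J-Dock7m +/+ Leprdb strain, which carry a leptin receptor mutation in every cell and become obese and hyperglycaemic, and the WT mice were male littermates with intact Lepr. Mice were perfused with PBS, both hindpaws were digested with collagenase, and live CD45+ cells of 2 to 3 mice were pooled into 1 droplet library for each of the 4 groups. No group therefore had a replicate, no test between groups could be made, and every interval below is an exact 95% interval for counting error only.

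Neutrophils are short-lived granulocytes made in the bone marrow, released into blood and drawn into injured or infected tissue by chemokines that bind Cxcr2. They build their granules in order as they mature, first primary granules with myeloperoxidase and elastase, then secondary granules with lactoferrin and cathelicidin, then gelatinase granules, and the transcripts of each set are lost as the next is made. Mature cells carry few transcripts, and once in tissue they can make IL-1, CXC chemokines and prostaglandins in large amounts.

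The whole libraries held 47851794, 57025899, 69626521 and 54989592 UMIs, of which 575491, 261161, 440620 and 152274 were in neutrophils. The median neutrophil had 2984, 2588, 2865.5 and 3052 UMIs across the libraries, and the median kept barcode had 7390, 7193.5, 8000.5 and 5355. Between the 12-week libraries 41 barcodes were shared, and 154 between the 21-week libraries. Barcodes seen in another library were carried by 4, 1, 1 and 0 of the neutrophils. Leaving out shared barcodes changed the DB to WT ratio of neutrophil shares little (0.614 at 12 weeks and 0.283 at 21 weeks, against 0.598 and 0.281 with them). It did lower the number of genes past 2-fold over all neutrophils, from 592 to 298 between the 12-week genotypes and from 642 to 394 between the WT ages, whereas it was 544 and 539 between the 21-week genotypes and 492 and 495 between the DB ages.

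Markers that the rule did not use went with the label. Of Acod1, Cxcr2, Mmp9, Mmp8, Il1r2, Hdc, Trem1, Clec4e, Slpi and Lcn2, all 10 were detected in each library, and at least 3 of them in 105 of 105, 76 of 78, 115 of 116 and 39 of 39 neutrophils. Cxcr2, the receptor for neutrophil-attracting chemokines, stood at 305.8, 325.5, 492.5 and 479.4 counts per 1e+06 UMIs (CPM) over all neutrophils, and at 3.23, 2.97, 0.843 and 2.81 CPM in T cells of the same libraries. T cell markers summed to 10, 10, 14 and 7 UMIs over all neutrophils. They include Cd3e, which the rule excludes, so this sum was partly set by the rule. Set beside barcodes with monocyte transcripts, and leaving out the genes of the rule, the genes with the largest mean log2 ratio were Stfa1, Ngp, Cstdc4, Cstdc5, Mmp9, Camp, Il1f9, Olfm4, Asprv1 and Wfdc21. These barcodes were chosen on expression, so the ratio is a description. Ly6g, the surface marker used to sort mouse neutrophils and chosen here after its values were seen, was sparse (166.8, 57.4, 13.6 and 0 CPM in the 4 libraries).

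Near the limits of the rule the number of barcodes varied by library. From 1% to 2% of UMIs in S100a8 and S100a9 there were 7, 6, 17 and 1 neutrophils, and 6, 4, 6 and 3 barcodes met every other term but lay between 0.5% and 1%. With 2 or 3 UMIs of Retnlg, G0s2 and Csf3r there were 3, 4, 5 and 3 neutrophils, and 1, 11, 10 and 3 barcodes were left out with 0 or 1. Set against the library's neutrophils, the largest counts were 14.7% (the 17 in 21-week-WT) and 14.1% (the 11 in 12-week-DB).

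Neutrophils were the smallest share of leukocytes in the older DB mice. At 12 weeks the share was 1.99% in WT (interval 1.63 to 2.41) and 1.19% in DB (0.942 to 1.48). At 21 weeks it was 1.60% in WT (1.32 to 1.91) and 0.448% in DB (0.319 to 0.612). The 21-week-DB share lay under the others, and its interval overlapped none of theirs. The DB to WT ratio of shares was 0.598 (0.440 to 0.809) at 12 weeks and 0.281 (0.190 to 0.407) at 21 weeks, and the 21-week to 12-week ratio was 0.801 (0.610 to 1.05) in WT and 0.376 (0.249 to 0.559) in DB. A share depends on the other sorted cells too, so fewer neutrophils and more of other leukocytes cannot be told apart.

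**Figure D1:**
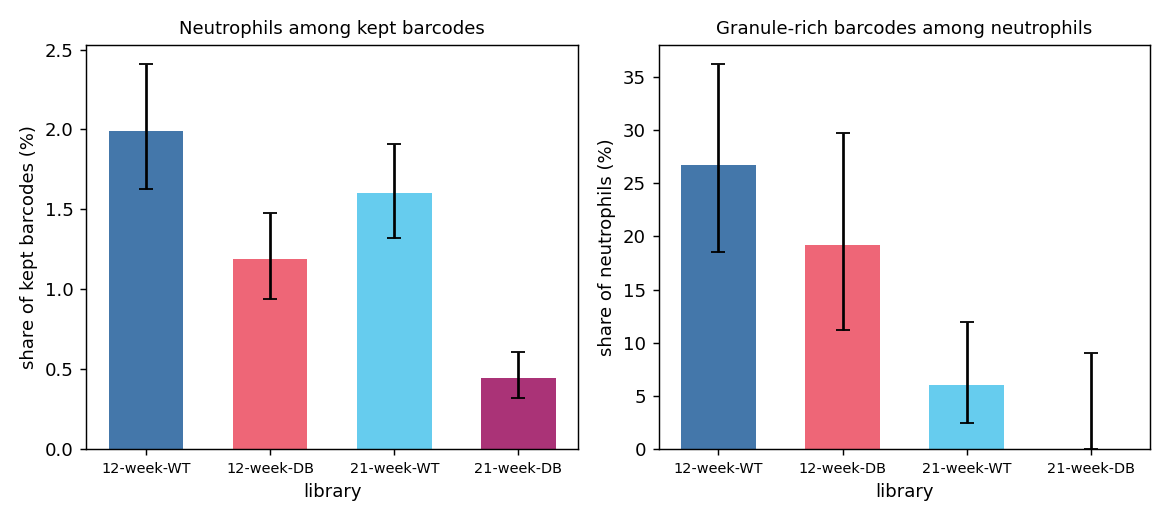
Left, neutrophils as a percentage of kept barcodes in each library; right, granule-rich barcodes as a percentage of neutrophils. Bars are the observed shares and lines exact 95% binomial intervals; the 21-week-DB library is lowest in both, at 0.448% and 0 of 39.

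Granule transcripts were abundant in a part of the neutrophils. Barcodes were called granule-rich when at least 0.5% of their UMIs came from Elane, Mpo, Prtn3, Ctsg, Ms4a3, Fcnb, Mki67, Top2a, Ltf, Camp and Ngp, a limit set after the values were seen. At 12 weeks they were 28 of 105 in WT (26.7%, 18.5 to 36.2) and 15 of 78 in DB (19.2%, 11.2 to 29.7). At 21 weeks they were 7 of 116 in WT (6.03%, 2.46 to 12) and 0 of 39 in DB, where the exact upper limit was 9.03%. Between 0.2% and 1%, near the limit, there were 3, 4, 0 and 0 barcodes. In 12-week-DB no neutrophil below the limit exceeded 0.176%, so all 4 were among its 15 granule-rich barcodes. The share was lower in both 21-week libraries than in 12-week-WT.

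Granule-rich barcodes held a program of secondary granule genes. Camp (chr9:109847377-109849456, GRCm38.p6), which encodes cathelicidin, stood at 26444.6, 17274.0 and 57374.7 CPM in the granule-rich barcodes of the 3 libraries that had any. Ngp, the neutrophilic granule protein gene (chr9:110419808-110423012), stood at 23334.3, 19006.8 and 34901.7 CPM, and Ltf, which encodes lactoferrin (chr9:111019292-111042766), at 5094.1, 2292.4 and 5016.8 CPM. In each of these libraries the barcodes were set apart from the remaining neutrophils by these genes, which the limit itself used. Cd177, a secondary granule gene that the limit did not use, was seen in 27 of 28, 12 of 15 and 7 of 7 granule-rich barcodes.

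Some of these barcodes had transcripts of earlier stages. Mpo and Elane, the primary granule enzymes, came from 3 barcodes of WT at 12 weeks (932 and 688 UMIs), 1 of DB at 12 weeks (5 and 2 UMIs) and 1 of WT at 21 weeks (18 and 56 UMIs). Mki67, a gene of dividing cells, was seen in 8 of 28, 1 of 15 and 2 of 7. Granule-rich barcodes were deep, with medians of 7815.5, 5041 and 13164 UMIs, and they held 58.2%, 35.6% and 21% of all neutrophil UMIs in those libraries. Whether the granule-rich barcodes came from marrow, blood or skin was not tested. B cell markers summed to 236, 10, 36 and 8 UMIs over the neutrophils of the 4 libraries. Of the granule-rich barcodes, 2, 2, 0 and 0 held at least 20 UMIs of another lineage's markers, and they were kept in the granule-rich levels. Kept barcodes that passed the granule limit without being neutrophils by the rule numbered 8, 7, 4 and 5, and in 21-week-DB all 5 missed the S100a8 and S100a9 term.

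Granule transcripts and inflammatory transcripts were largely found in different barcodes. Cxcl2, Il1b, Ccl3 and Ccl4 together made up a median of 0.0426%, 0.462% and 0.0076% of UMIs in the granule-rich barcodes of the same libraries. In the remaining barcodes without another lineage's markers the median was 2.29%, 2.85%, 1.95% and 3.39% in the 4 libraries.

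**Figure D2:**
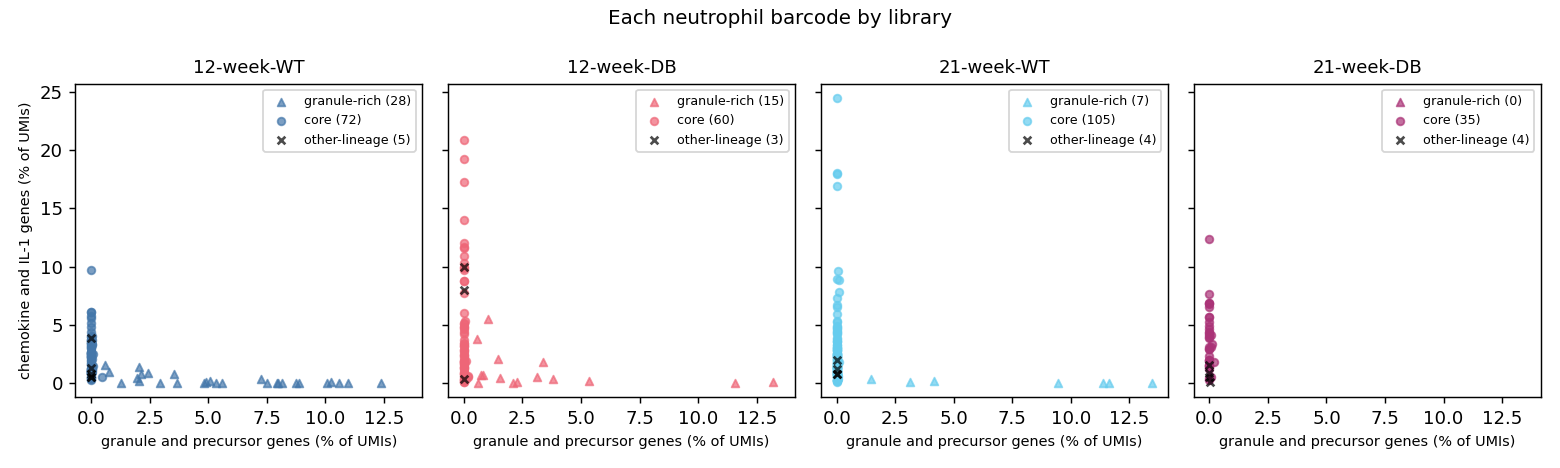
Each point is 1 neutrophil barcode, with the percentage of its UMIs from the 11 granule and precursor genes on the x axis and from Cxcl2, Il1b, Ccl3 and Ccl4 on the y axis, in 4 panels by library. Triangles are granule-rich (28, 15, 7 and 0), circles core (72, 60, 105 and 35) and crosses the remaining barcodes with another lineage's markers (5, 3, 4 and 4). Of the triangles, 2, 2, 0 and 0 also held such markers. Most granule-rich points lie near the x axis and core points near the y axis.

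Sums over all neutrophils therefore mix cell stages in different proportions, and comparisons are given both for all neutrophils and for core neutrophils. Core neutrophils were those that were not granule-rich and had under 20 UMIs of the markers of each other lineage (monocytes and eosinophils aside), a set defined after the data were seen. They numbered 72, 60, 105 and 35 and held 191257, 147149, 300454 and 106938 UMIs. The deepest core barcode of 21-week-DB held 13514 UMIs, where the core median was 2970. Mpo, Elane and Ms4a3 were at 0 in the core of every library, and Camp was at 15.7, 6.80, 6.66 and 0 CPM. The DB to WT ratio of the core share was 0.670 (0.468 to 0.958) at 12 weeks and 0.278 (0.184 to 0.412) at 21 weeks, and the 21-week to 12-week ratio was 1.06 (0.776 to 1.45) in WT and 0.439 (0.281 to 0.677) in DB.

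Inflammatory and receptor transcripts were detected in core neutrophils of every library. Il1b, the IL-1β precursor gene, had a UMI in 69 of 72, 58 of 60, 104 of 105 and 35 of 35 core barcodes, and Cxcl2, which encodes a ligand of Cxcr2, in 90.3%, 86.7%, 87.6% and 88.6%. In T cells Il1b stood at 43.8, 78.3, 169.5 and 90.7 CPM, against 8789.2, 14380.0, 9372.5 and 9369.9 CPM in core neutrophils. Il1r2, the decoy IL-1 receptor gene, had a UMI in 98.6%, 81.7%, 95.2% and 77.1% of core barcodes, and Hdc, the histamine-forming enzyme gene, in 97.2%, 88.3%, 89.5% and 80.0%. How far free RNA added to these shares for Cxcl2, Il1r2 and Hdc was not tested.

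The 12-week-DB library was compared with 12-week-WT, a comparison in which genotype and pool of mice cannot be told apart. Cytokine and chemokine genes were higher as a group. Of the 17 list members with at least 30 UMIs in the pair, 13 were at least 2-fold higher over all neutrophils and 0 at least 2-fold lower, where 5.93% of all 3205 genes measured were that much higher and 12.5% that much lower. In the core, 10 of 15 were higher and 0 lower, against 5.56% and 8.17% of 1566 genes. The list's median log2 ratio was 1.90 over all neutrophils and 1.55 in the core, against -0.08 and -0.15 for all genes.

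The chemokines that attract neutrophils were part of this group. Cxcl3 stood at 47.1, 1501.9, 159.8 and 159.0 CPM in core neutrophils of the 4 libraries, a DB to WT ratio of 31.9 (16.5 to 70.7) at 12 weeks. Cxcl2 stood at 12689.7, 29867.7, 15486.6 and 18365.8 CPM, with a ratio of 2.35 (2.24 to 2.47), and Cxcl1 at 120.3, 625.2, 56.6 and 0 CPM, with a ratio of 5.20 (3.26 to 8.61). In monocytes at 12 weeks Cxcl2 also stood higher in DB (803.2 CPM in WT and 1726.4 in DB), whereas Il1b stood at 391.7 and 451.2 CPM. The rise of Cxcl2 was thus not particular to neutrophils. On summed UMIs all 3 chemokines were highest in 12-week-DB. The 5 highest of 60 barcodes there held 80.1% of the Cxcl3 UMIs and 41.5% of those of Cxcl2, and the median of Cxcl2 over barcodes was 9901.4, 11769.5, 6548.4 and 16466.6 CPM, highest in 21-week-DB. For Cxcl1, 1 barcode held 60.9% of the UMIs in 12-week-DB and 1 held 82.6% in 12-week-WT, and without these the levels were 249.1 and 21.2 CPM. Their genes lie close together on chromosome 5, and the 130 bases before each RefSeq start site are shown because the 3 genes were high in the same library (GRCm38.p6, 5′ to 3′, capitals mark GGGANTTTC, the core of an NF-κB type motif, searched on both strands).
Cxcl1 (chr5:90891115-90891244, plus strand): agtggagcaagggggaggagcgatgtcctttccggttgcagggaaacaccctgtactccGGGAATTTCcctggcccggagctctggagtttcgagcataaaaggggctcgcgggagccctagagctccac
Cxcl2 (chr5:90903769-90903898, plus strand): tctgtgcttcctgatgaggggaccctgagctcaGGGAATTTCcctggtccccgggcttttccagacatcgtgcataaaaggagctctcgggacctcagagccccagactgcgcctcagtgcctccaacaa
Cxcl3 (chr5:90785971-90786100, plus strand): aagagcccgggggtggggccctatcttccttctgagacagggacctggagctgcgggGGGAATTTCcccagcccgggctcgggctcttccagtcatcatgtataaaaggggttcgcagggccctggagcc
The match began 71, 97 and 73 bases before the start in Cxcl1, Cxcl2 and Cxcl3. Within 250 bases before the start, 0.941% of 32851 promoters held this motif, as did 5 of the 17 genes of the cytokine list with a promoter entry (Il6, Csf1, Cxcl1, Cxcl2 and Cxcl3). A match describes the sequence only.

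Genes of the IL-1 family and Ptgs2 were also higher in 12-week-DB. Il1a, which encodes IL-1α, had 2, 83, 9 and 2 UMIs in the core of the 4 libraries, or 10.5 CPM in WT and 564.1 in DB at 12 weeks (ratio 53.9, 14.5 to 452.8). In 12-week-DB they came from 9 of 60 barcodes, and the 5 highest held 95.2% of them. Il1rn, the IL-1 receptor antagonist gene, stood at 512.4, 1998.0, 762.2 and 458.2 CPM (3.90, 3.09 to 4.95), and Il1b had a ratio of 1.64 (1.53 to 1.75), or 2.94 over all neutrophils. Ptgs2, which encodes the prostaglandin-forming enzyme COX-2, stood at 2703.2, 8848.2, 3761.0 and 991.2 CPM (3.27, 2.95 to 3.63), and it was the 1 gene of 4 measured in the eicosanoid list that was at least 2-fold higher (list median log2 ratio -0.21). On summed UMIs each was highest in 12-week-DB, but the median of Il1b over core barcodes was 6451.1, 9397.7, 7237.3 and 12363.3 CPM, highest in 21-week-DB. For Ptgs2, 1 barcode held 23.8% of the UMIs, and the log2 ratio was 1.71 on the sums, 1.36 on the mean over barcodes and 1.49 without the top barcode of each library.

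Other cytokine genes had ratios that also lay above 1 with their intervals. Tnf had a ratio of 5.79 (3.90 to 8.84), Csf1 of 4.01 (2.48 to 6.73), Ccl3 of 3.77 (3.24 to 4.40), Ccl4 of 2.92 (2.53 to 3.38) and Osm of 2.61 (2.04 to 3.36). These intervals do not cover the spread between barcodes. In 12-week-DB the 5 highest barcodes held 70.3% of the Tnf UMIs, 56.3% of Csf1, 48.8% of Ccl3, 54.9% of Ccl4 and 53.3% of Osm. On the mean over barcodes the log2 ratios of these genes were, in the same order, 2.02, 1.81, 1.59, 1.40 and 1.18. Icam1, an adhesion molecule that neutrophils gain on activation, stood at 94.1, 666.0, 119.8 and 149.6 CPM (7.08, 4.25 to 12.4). After each barcode was thinned to 1000 UMIs, Icam1 was seen in 5.56% of 72 core barcodes in 12-week-WT and 29.3% of 58 in 12-week-DB, where 2 shallower barcodes were left out (13.9% and 41.7% unthinned). Nfkbia and Nfkbiz, feedback genes of NF-κB signalling, had ratios of 2.11 (1.90 to 2.35) and 2.02 (1.78 to 2.31). On the mean over barcodes their log2 ratios were 0.92 and 0.79, so neither was 2-fold higher. Without the top barcode of each library they were 1.01 and 0.86.

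Among receptor genes for microbial and tissue signals, a few were at least 2-fold higher in 12-week-DB and none lower. Of 8 measured chemoattractant receptors in the core, Ccrl2 and Fpr1 were at least 2-fold higher in 12-week-DB and none lower. Fpr1, the receptor for bacterial formyl peptides, stood at 62.7 CPM in WT and 237.9 in DB (3.79, 1.92 to 8.02). Of 10 measured pattern recognition genes, Clec4n and Clec4e were higher and none lower, against 5.56% and 8.17% of all 1566 core genes. Clec4e, the receptor for mycobacterial and dead-cell lipids known as Mincle, stood at 1636.5, 4009.5, 1484.4 and 2169.5 CPM in the 4 libraries (2.45, 2.13 to 2.82). The 5 Fc and integrin receptors and 10 glycolysis genes measured held none past 2-fold in either direction.

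The stefin genes Stfa1, Stfa2l1, Cstdc4 and Cstdc5 were higher in the 12-week-DB core as well. Stfa1, Stfa2, Stfa2l1, Stfa3, Cstdc4 and Cstdc5 encode closely related inhibitors of cysteine proteases in 1 cluster on chromosome 16, so the split of reads among them is uncertain. Cstdc4 stood at 392.1 CPM in the 12-week-WT core and 2358.2 in 12-week-DB (6.01, 4.67 to 7.83), and Stfa1 at 26.1 and 1033.0 CPM, seen in 2.78% and 21.7% of barcodes. In 12-week-DB 5 barcodes held 82.2% of the Stfa1 UMIs. The stefin genes were not a fixed list, so no count of them is set beside the share of all genes.

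Other genes were lower in 12-week-DB. Ifi27l2a, an interferon-stimulated gene, stood at 1124.1 CPM in the 12-week-WT core and 95.1 in 12-week-DB (0.0846, 0.0455 to 0.145), and it was also lower in monocytes (990.2 and 294.7 CPM) and T cells (91.4 and 38.5 CPM). Of 7 interferon list members measured in the core, only Isg15 and Ifitm3 were at least 2-fold lower in 12-week-DB, against 8.17% of all 1566 core genes. Over all neutrophils neither was (0.666 and 0.613). Over all neutrophils Plac8, Ltf and the tubulin genes Tubb5 and Tuba1b were among the 10 genes with the lowest ratios. There all 5 primary granule genes and 4 of 7 secondary granule genes were at least 2-fold lower, against 12.5% of all 3205 genes. Ltf was at 0 in the core of both libraries.

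At 21 weeks DB neutrophils differed from WT in a set of genes that partly overlapped that of 12 weeks. Genes at least 2-fold higher in the DB core at both ages included Fpr1, Tnf, Stfa1, Stfa2l1, Cstdc4 and Cstdc5. Those at least 2-fold lower at both ages included Isg15, Ifitm3 and Ifi27l2a, the last with 215, 14, 143 and 2 core UMIs in the 4 libraries. Over all neutrophils 7.57% of 2364 genes were at least 2-fold higher in 21-week-DB and 15.4% at least 2-fold lower, and in the core 6.74% and 17.9% of 1720 genes. With the median gene set to no difference, 254 genes were higher and 265 lower over all neutrophils, against 179 and 365 on CPM. The median gene had a log2 ratio of -0.18 over all neutrophils and -0.26 in the core, so values below are to be read against that shift. Ribosomal protein genes made up 8.43% of core UMIs in 21-week-DB and 4.42% in 21-week-WT, and 26.3% and 18.8% of T cell UMIs. The part of this difference in the gene ratios was not tested.

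In core neutrophils Lcn2, Stfa1, Stfa2l1, Cstdc4 and Cstdc5 were highest in 21-week-DB. Lcn2, which encodes the siderophore-binding protein lipocalin-2, stood at 611.7, 434.9, 545.8 and 3039.1 CPM in core neutrophils, a DB to WT ratio of 5.57 (4.60 to 6.76) at 21 weeks. Over all neutrophils, where granule-rich barcodes add Lcn2 to every library but 21-week-DB, the ratio was 1.07 (0.948 to 1.20). Lcn2 was seen in 40.3%, 40.0%, 36.2% and 88.6% of core barcodes, and after thinning to 1000 UMIs in 25.2% of 103 and 78.8% of 33 at 21 weeks. T cells of the 21-week libraries held 0.703 and 5.18 CPM. Lcn2 is a secondary granule gene, and of the other members of that list only Ngp and Olfm4 reached 30 UMIs in the core in any pair.

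The stefin genes named above had core DB to WT ratios from 4.44 (Stfa3) to 28.7 (Cstdc5) at 21 weeks, against 5.57 for Lcn2. Stfa2l1 stood at 554.2, 1338.8, 456.0 and 3815.3 CPM (8.37, 6.88 to 10.2, DB to WT at 21 weeks) and was seen in 82.9% of 21-week-DB core barcodes. Cstdc5 stood at 5.23, 251.4, 79.9 and 2291.0 CPM (28.7, 18.8 to 45.6), and Stfa1 at 26.1, 1033.0, 219.7 and 2824.1 CPM (12.9, 9.82 to 17). In all 3, as in Cstdc4 (392.1, 2358.2, 525.9 and 3534.8 CPM), 21-week-DB was highest and 12-week-DB next. Over all neutrophils, by contrast, Stfa3 (317.8 and 197.0 CPM) and Cstdc4 (2588.4 and 2502.1 CPM) were higher in 12-week-DB than in 21-week-DB. In Stfa1 the 5 highest barcodes held 80.5% of the 21-week-DB UMIs. In monocytes Stfa1 was at 0 in each library.

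Fth1, the ferritin heavy chain gene of iron storage, stood at 4104.4, 8025.9, 9186.1 and 23677.3 CPM (2.58, 2.44 to 2.72). In monocytes it stood at 2522.0, 3192.7, 3797.4 and 9149.7 CPM, and in T cells of the 21-week libraries at 1721.5 and 1948.0 CPM. Chil3, a chitinase-like protein gene, had 1 UMI in the core of each of the first 3 libraries and 18 UMIs in 9 of 35 barcodes in 21-week-DB, under the 30 UMIs asked of a called gene (21-week ratio 50.6, 7.98 to 2107.1). Retnlg, a gene of the rule, stood at 3450.9, 3968.8, 3874.1 and 12390.4 CPM and is given as a description.

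Interferon-stimulated genes were low in 21-week-DB neutrophils. Of 9 list members measured in the core, 5 were at least 2-fold lower (Isg15, Ifitm3, Slfn4, Rsad2 and Ifit1) and Ifitm2 at least 2-fold higher, against 17.9% and 6.74% of all core genes. Isg15, a ubiquitin-like protein gene, stood at 423.5, 176.7, 525.9 and 9.35 CPM (0.0178, 0.000447 to 0.101). Slfn4, a schlafen gene of myeloid cells, stood at 841.8, 455.3, 599.1 and 65.5 CPM (0.109, 0.0433 to 0.230). Rsad2, which encodes viperin, stood at 209.1, 292.2 and 382.8 CPM and had no UMI in 21-week-DB, at least 13.6-fold lower than in 21-week-WT when the 21-week-DB library is set at 3 counts. In each of these genes 21-week-DB was the lowest library. At 21 weeks Isg15 stood at 46.7 (WT) and 15.5 (DB) CPM in monocytes and at 19.0 and 18.6 CPM in macrophages.

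The 130 bases before the start of 3 of these genes are shown because none had more than 1 UMI in the 21-week-DB core (GRCm38.p6, 5′ to 3′ in the direction of the gene; capitals mark GAAANNGAA on either strand, the core of an interferon response element).
Isg15 (chr4:156200819-156200948, minus strand): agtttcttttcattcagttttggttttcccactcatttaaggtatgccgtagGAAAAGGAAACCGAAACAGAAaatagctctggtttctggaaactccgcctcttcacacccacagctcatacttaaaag
Ifit1 (chr19:34640759-34640888, plus strand): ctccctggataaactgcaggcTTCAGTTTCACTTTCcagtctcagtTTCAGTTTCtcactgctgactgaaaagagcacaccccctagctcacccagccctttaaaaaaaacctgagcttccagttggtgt
Rsad2 (chr12:26456453-26456582, minus strand): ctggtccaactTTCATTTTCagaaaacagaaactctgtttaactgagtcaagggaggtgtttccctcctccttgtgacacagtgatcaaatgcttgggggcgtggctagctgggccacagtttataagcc
Isg15 and Ifit1 held 3 matches each, some of them overlapping, and Rsad2 held 1. Within 250 bases before the start the motif was in 7.13% of 32851 promoters and in 7 of the 16 genes of the interferon list with an entry. It can overlap other purine-rich motifs. Ifit1, which encodes an RNA-binding antiviral protein, stood at 26.1, 0, 113.2 and 0 CPM in the core, so it had no UMI in either DB library, and 1 barcode held 61.8% of its UMIs in 21-week-WT.

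In the core, 3 of 11 measured cytokine receptor genes and 2 of 11 pattern recognition genes were at least 2-fold lower in 21-week-DB, against 17.9% of all genes. Of 8 chemoattractant receptor genes and 5 Fc and integrin receptor genes none was, and Fpr1 was at least 2-fold higher. On the mean over barcodes Fpr1 stood at 205.9 (DB) and 108.5 (WT) CPM, which is under 2-fold. Ptgs2 had a ratio of 0.264 (0.214 to 0.322), Vegfa, an angiogenic growth factor gene, of 0.312 (0.174 to 0.524), and Csf1 of 0.365 (0.203 to 0.618). Tgm2, the tissue transglutaminase gene, stood at 454.9, 455.3, 582.5 and 9.35 CPM (0.0161, 0.000404 to 0.0906), and Basp1 at 313.7, 407.7, 599.1 and 37.4 CPM (0.0624, 0.0168 to 0.163). Among receptors, Il1r2 had a ratio of 0.397 (0.328 to 0.478), Csf2rb, the common β chain for GM-CSF, of 0.279 (0.140 to 0.505) and Tlr2, a receptor for bacterial lipoproteins, of 0.308 (0.171 to 0.517). Hdc was also lower (0.382, 0.314 to 0.462).

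On summed UMIs, several central transcripts differed little at this age. The core ratio was 1 (0.929 to 1.07) for Il1b, 1.19 (1.12 to 1.25) for Cxcl2 and 0.919 (0.688 to 1.21) for Cxcr2. The median over core barcodes was higher in 21-week-DB than in 21-week-WT for both Il1b (12363.3 and 7237.3 CPM) and Cxcl2 (16466.6 and 6548.4 CPM). In monocytes both were also higher in 21-week-DB, Il1b at 2665.4 CPM (988.1 in WT) and Cxcl2 at 3474.6 CPM (808.7 in WT). Of 13 measured cytokine genes 1 was at least 2-fold higher (Tnf) and 4 at least 2-fold lower (Csf1, Osm, Vegfa and Tnfsf14). Over all neutrophils 0 of 14 were higher and 4 lower. Without the top barcode of each library Tnf stood at 212.4 (DB) and 111.3 (WT) CPM in the core, which is under 2-fold.

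MHC class II transcripts in 21-week-WT core neutrophils were below the level estimated for free RNA, so their lower counts in 21-week-DB are not read as a difference in expression. Cd74, the invariant chain gene, stood at 517.6, 462.1, 475.9 and 18.7 CPM in the core, and all 4 measured members of the list were at least 2-fold lower in 21-week-DB. Free RNA, estimated from mast cell and T cell genes, was 7.54% of neutrophil UMIs in 21-week-WT and 2.27% in 21-week-DB. At these shares, in a comparison added after the data were seen, it would give 232.5 UMIs of Cd74 in the 21-week-WT core, where 143 were counted, and 132.5 of H2-Aa, where 114 were counted. H2-Ab1 (86.0 estimated, 71 counted) and H2-Eb1 (55.9 and 45) were alike. Estimates above the counts cannot be exact, so how much of these counts was free RNA is not known. In the 12-week cores the Cd74 counts lay above the estimates (99 and 53.0 UMIs in WT, 68 and 28.9 in DB). Over all neutrophils of 21-week-WT, 3 barcodes held 1162 of 1320 Cd74 UMIs, and 3 carried markers of dendritic cells. Cd74 was lowest in 21-week-DB in T cells (3422.0, 1935.2, 3404.8 and 434.0 CPM), monocytes (6096.2, 3939.5, 9513.4 and 1501.4) and macrophages (4715.4, 3700.5, 7047.2 and 1279.4) too. Over all neutrophils, 4 barcodes of 21-week-WT and 4 of 21-week-DB held at least 20 UMIs of another lineage, and with them Dcn and Apod, genes of fibroblasts, were at 2876.4 and 774.9 CPM in 21-week-DB. In the core, Dcn had a ratio of 0.853 (0.465 to 1.49), but Apod, with 2 UMIs in 21-week-WT and 13 in 21-week-DB, one of 18.3 (4.13 to 166.7).

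**Figure D3:**
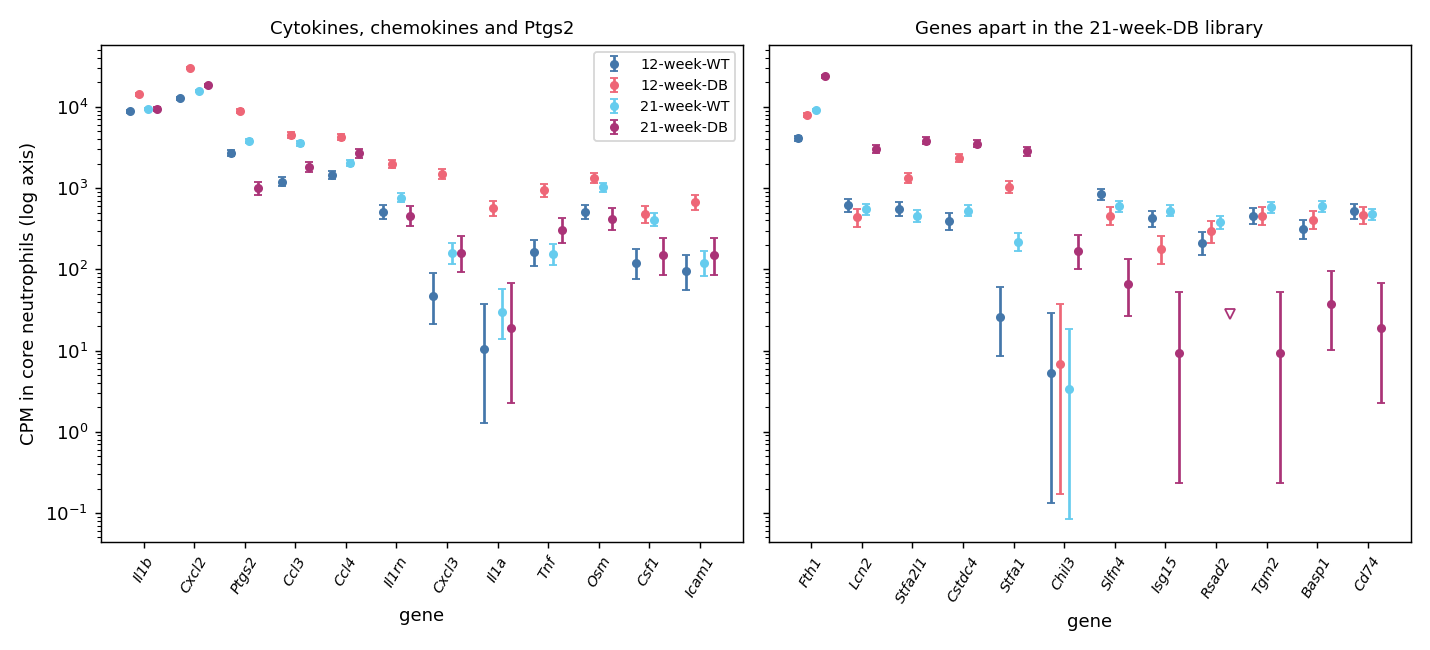
CPM in core neutrophils of 12 cytokine, chemokine and activation genes (left) and 12 genes of the 21-week comparison (right) on a log axis, 1 colour for each library. Points are summed levels, lines exact 95% Poisson intervals, and the open triangle marks a gene without a UMI, drawn at 3 counts; 12-week-DB is the highest library for Il1a and Cxcl3 (564.1 and 1501.9 CPM), and 21-week-DB for Lcn2 and Fth1 (3039.1 and 23677.3 CPM). Cd74 in 21-week-WT (475.9 CPM) lies below the 773.7 CPM estimated for free RNA.

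Age was compared within each genotype. In WT, 6.60% of 3637 genes were at least 2-fold higher at 21 weeks over all neutrophils and 11.1% at least 2-fold lower, and in the core 5.19% and 6.15% of 2081. Over all neutrophils 9 of 16 cytokine genes were higher at 21 weeks, but in the core 3 of 14 (Csf1, Cxcl3 and Ccl3) were, with Cxcl1 lower. The fall of Cxcl1 rested on 1 core barcode, which held 82.6% of its UMIs in 12-week-WT. Without the top barcode of each library Cxcl1 stood at 21.2 CPM at 12 weeks and 43.5 CPM at 21 weeks, in the other direction. Ccl3, a chemokine for monocytes and T cells, had a core ratio of 2.96 (2.57 to 3.43) and Fth1 of 2.24 (2.07 to 2.43). The stress genes Jun, Dnajb1, Hsp90aa1, Hspa1b and Hspa1a were at least 2-fold higher of 13 early response genes, and Hspa1b stood at 251.0 and 1477.8 CPM at 12 and 21 weeks in the core, whereas its ratio over all neutrophils was 1.04 (0.925 to 1.16). Il1b had a ratio of 1.07 (1 to 1.13) in the core and 2.10 (1.98 to 2.22) over all neutrophils. The 12-week files were made with Cell Ranger 5.0.0 and the 21-week files with 6.0.0 by their headers, so age and software cannot be told apart.

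In DB, many cytokine genes were lower at 21 weeks. Over all neutrophils 11% of 1741 genes were at least 2-fold higher and 17.3% at least 2-fold lower, and in the core 11.2% and 18.5% of 1140. Here too the balance depended on scaling, since 191 genes were higher and 301 lower on CPM but 254 and 226 with the median gene set to no difference. Of 14 measured cytokine genes 0 were higher and 9 lower in both sets, and in the core these were Il1rn, Il1a, Csf1, Cxcl3, Cxcl1, Tgfb1, Osm, Ccl3 and Tnf. Ptgs2 had a core ratio of 0.112 (0.0910 to 0.137) and Cxcl3 of 0.106 (0.0606 to 0.173). F3, which encodes tissue factor, stood at 360.2 CPM in 12-week-DB and had no UMI in 21-week-DB (at least 12.8-fold lower). In 12-week-DB 1 barcode held 49.1% of its UMIs, and without it the level was 190.7 CPM. In the core, Lcn2 was higher at 21 weeks (6.99, 5.33 to 9.29, against 1.08 over all neutrophils), as were Wfdc17 (20.6, 6.63 to 103.8) and Fth1 (2.95, 2.75 to 3.16). This comparison shares its libraries with the DB to WT comparisons, so these values are not separate evidence.

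**Figure D4:**
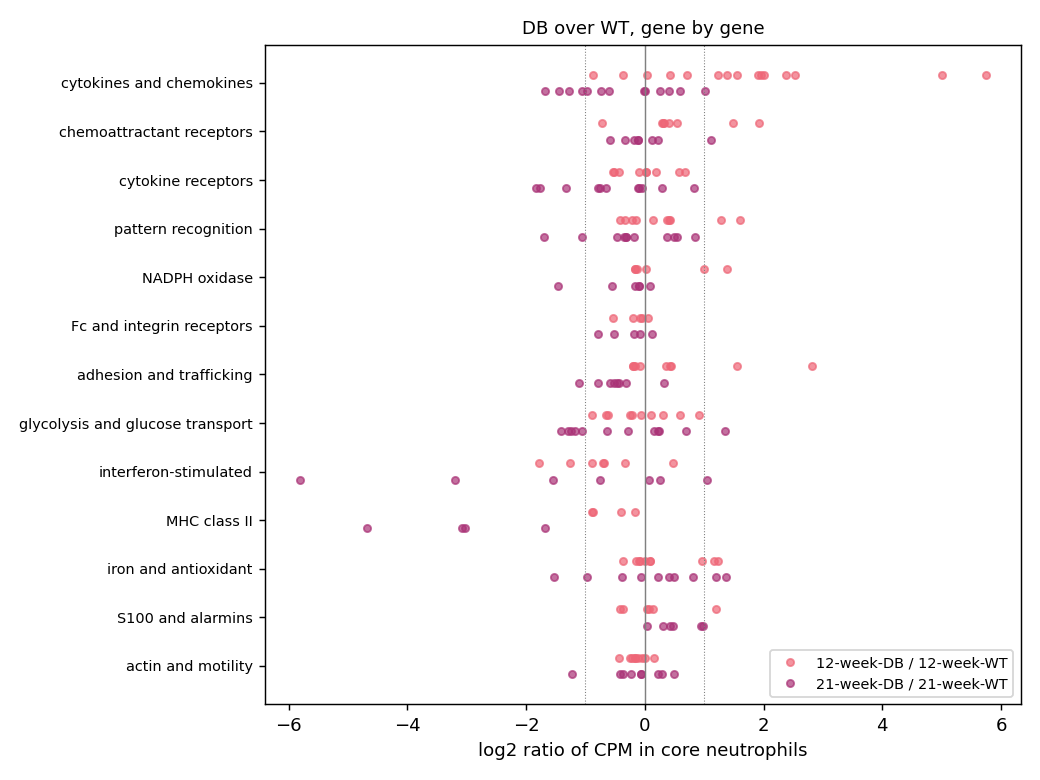
Log2 ratios of CPM in core neutrophils, DB over WT, for members of 13 gene lists with at least 30 UMIs in the pair, at 12 weeks (light red) and 21 weeks (purple). Each point is 1 gene, dotted lines mark 2-fold, and genes without a UMI in 1 library are not drawn; at 12 weeks 10 of 15 cytokine genes lie at or beyond the upper line, and at 21 weeks 1 of 13.

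Over all core genes, 5.56% were at least 2-fold higher and 8.17% lower at 12 weeks, and 6.74% and 17.9% at 21 weeks. Of 9 actin and motility genes in the core, 0 were past 2-fold at 12 weeks and Wipf1 was lower at 21 weeks. The NADPH oxidase, which makes the oxidative burst, had 6 measured members, of which Cybb alone was past 2-fold, higher at 12 weeks (2.60, 1.39 to 5.07) and lower at 21 weeks (0.363, 0.0930 to 1.03). Over all neutrophils its 12-week ratio was on the other side of 1 (0.536, 0.442 to 0.647). Of 6 gelatinase and secretory granule genes Cybb was again the only member past 2-fold, and Mmp9 stood at 1615.6, 1107.7, 1298.0 and 673.3 CPM. Of glycolysis genes 0 of 10 were past 2-fold at 12 weeks, whereas at 21 weeks Hk2 was higher and Eno1, Slc2a3, Aldoa, Pkm and Pgk1 were lower of 12.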

How the data were processed

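The authors deposited UMI counts per gene and barcode from 10x 3′ v3 droplet libraries, made with Cell Ranger on mm10 and not normalized or corrected for ambient RNA. By the headers, Cell Ranger 5.0.0 made both 12-week files and 6.0.0 both 21-week files. The 4 matrices held 32285 genes, and 0 columns of values were left unused. UMIs were summed over neutrophils and scaled to their total (CPM). Ratios have exact conditional binomial, levels exact Poisson and shares exact Clopper-Pearson intervals at 95%. A gene was called at a ratio of at least 2 or at most 0.5 with at least 30 UMIs in the pair. There was 1 library per group, so no test was made. The ratio code was tested on simulated counts. Stfa, Cstdc and Bcl2a1 genes have near-identical copies, so their split is uncertain. Clec7a, a list gene, was not analysed here.

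Neutrophil members and gene lists were chosen with earlier results of these data known. Genes named are those of the rule, markers and lists, and by rule the 10 highest and 10 lowest ratios per contrast, from genes with 200 CPM or more in 1 of its libraries, a UMI in 10% of that library's neutrophils and an interval without 1, the 20 most abundant, and the 20 highest over monocytes. Monocytes had at least 2 UMIs of Plac8 and of Lyz2, under 5 of C1q genes and no Cd3e, macrophages at least 20 of C1q genes, and T cells at least 1 of Cd3e. Doublets were not removed in the values reported. Removal by Scrublet score (scanpy 1.11.5) was an alternative that took out 5, 2, 12 and 6 neutrophils, since Scrublet's own threshold marked 55, 74, 0 and 2 barcodes. Of the neutrophils taken out, 0, 0, 6 and 5 were core neutrophils, and these stayed in the core values reported. RefSeq promoters and gene positions are from GRCm38.p6. Python 3.11.15, numpy 2.4.6, scipy 1.17.1, pandas 2.3.3 and matplotlib 3.10.9 were used. Alternatives were other gate limits, scalings, UMI minimums, thinning to 1000 UMIs, subtraction of ambient RNA, core neutrophils and barcodes shared between libraries left out. The last 2 were added after the data were seen.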

Additional observations from a re-analysis of the deposited data

Results flagged for a closer look

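Some genes differed between genotypes in opposite directions at the 2 ages, each by at least 2-fold in core neutrophils with 1 library per group, and the difference between ages was not tested. The log2 DB to WT ratio was 2.00 at 12 weeks and -1.45 at 21 weeks for Csf1, the macrophage growth factor gene. It was 1.71 and -1.92 for Ptgs2, 1.39 and -1.28 for Osm, an IL-6 family cytokine gene, and 1.38 and -1.46 for Cybb. Over all neutrophils Cybb was lower at 12 weeks too (ratio 0.536). Cybb had 4 UMIs in 21-week-DB, and its interval at 21 weeks included a ratio of 1. On the mean over barcodes, which weights each equally, the 21-week log2 ratio was -0.18 for Cybb and -0.94 for Osm, so neither was 2-fold lower.

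Barcodes under the gene minimum or over the mitochondrial limit were left out of all comparisons. Of these, 7 of 727 in 12-week-WT and 12 of 911 in 12-week-DB met the expression terms of the neutrophil rule. These were 0.963% and 1.32% of the left-out barcodes, where neutrophils were 1.99% and 1.19% of the kept barcodes of the same libraries. All of these left-out barcodes were over the mitochondrial limit. The 21-week libraries had 3 of 938 and 0 of 417.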

How the results depend on the processing

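Share ratios kept their side of 1 between genotypes and between DB ages under every alternative run, with ranges of 0.511 to 0.715 (12 weeks), 0.225 to 0.343 (21 weeks) and 0.333 to 0.439 (DB ages). At 12 weeks the ratio of 0.715, with at least 5% of UMIs from S100a8 and S100a9, had an interval that took in 1 (0.490 to 1.04). Between WT ages the range was 0.708 to 1.06, and the value of 1.06 came from core neutrophils. The number of genes past 2-fold was 592 and 544 between genotypes at 12 and 21 weeks and 642 and 492 between WT and DB ages. In that order it was 1576, 1503, 1637 and 1358 with a minimum of 10 UMIs, 177, 165, 168 and 174 with a minimum of 100, and 4698, 4677, 5529 and 4755 with 0.5 added and 1 UMI as the minimum. With at least 5% of UMIs from S100a8 and S100a9 it was 365, 337, 372 and 292. Core neutrophils gave 215 at 12 weeks and 236 between WT ages, and leaving out shared barcodes gave 298 and 394. The percentage of these genes that were higher was 32.1, 32.9, 37.4 and 38.8, and it moved by over 10 points to 48.9 (21 weeks) and 52.9 (DB ages) with median-ratio scaling, to 46.3, 44.2, 50.6 and 54.6 with at least 100 UMIs, to 50.5, 64.6 and 59 (12 weeks, 21 weeks and DB ages) with 0.5 added, to 53.4 (12 weeks) and 49.2 (WT ages) with the 5% limit, and to 43 (12 weeks) without shared barcodes. Leaving aside the 3 alternatives that do not act on single genes (both UMI minimums and the total without gate genes), 817 gene ratios were recomputed under 10, of which 804 kept the sign found over all neutrophils, 13 changed it and 225 lay outside their interval. Most of these came with the mean over barcodes (45 of 82), the 5% limit (51 of 82), core neutrophils (44 of 80) and doublet removal (30 of 82). Of ratios past 2-fold, those that changed sign were the 21-week log2 ratios of Mt2 (-0.63) and Dcn (-0.23) in core neutrophils. The rest were 21-week ratios of Cxcr2, Lcn2, Il1b and Cxcl2, the DB age ratio of Lcn2, the WT age ratio of Hspa1b and the 12-week ratio of Cybb. Genes without a UMI in 1 library have no ratio and are not among them. The causes were not tested.

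No paired analysis was possible because each group had 1 library. Between-animal spread is unknown, and ages and genotypes were each carried by single pools of mice. The 39 neutrophils of 21-week-DB limit every comparison with that library, where 3 counts correspond to 19.7 CPM over all neutrophils.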
